A study of Caenorhabditis elegans with 2 samples.

Results

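The nuclear hormone receptor genes of Caenorhabditis elegans were taken as every protein-coding gene whose symbol begins with nhr-, together with daf-12, unc-55, odr-7, sex-1 and fax-1, which encode receptors of the same family under other names. In the Ensembl annotation of assembly WBcel235 these were 274 of the 19973 protein-coding genes on the 6 nuclear chromosomes. Chromosome V carried 167 of them, IV 33, X 27, I 24, II 15 and III 8. The values come from chromatin immunoprecipitation followed by sequencing (ChIP-seq), which lists the places in the genome where DNA was recovered with a tagged protein. Here the tagged protein was itself a member of the family, NHR-27 fused to green fluorescent protein, and the antibody was directed at the fluorescent protein. The question addressed was which receptor genes, nhr-27 included, have listed regions near their starts or within them.

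All DNA came from whole worms of strain OP208, genotype unc-119(ed3) III; wgIs208, where wgIs208 is the integrated transgene for the fusion protein and unc-119(ed3) is a mutation that every worm of the strain carries. The worms were young adults of 78 h, of mixed sex, synchronised by hatching after bleaching and starving the first-stage larvae. They form 1 group with 2 biological replicates, so there was no untagged strain, other stage or other condition to compare with. The promoter that drives the transgene is not given in the sources used here, tissues were not separated, and the labels disagree on the tagged protein, since the antibody label and source name give nhr-27 while a strain note gives NHR-270. The name nhr-27 is used below, and nhr-270 is reported beside it.

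Nuclear hormone receptors are transcription factors with a zinc-finger domain that binds short DNA sites and a second domain that, in many members, binds a lipid or other small molecule. Nematodes carry far more of them than insects or vertebrates, mostly from repeated duplication of an ancestor related to HNF4, and many of the duplicates lie in clusters on chromosome V. A smaller set has clear counterparts in other animals and is known for roles in moulting, larval development and neuron identity, while several of the duplicated receptors are known for control of fat metabolism and of responses to toxins and diet.

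The lists hold regions, each with a summit and a signal value. The scale of the signal is not stated and differs between lists, so a signal is read only against its own list. The pooled list has 30000 regions with signals from 28.5 to 430.2 and a median of 38.1. Replicate 1 has 30000 with a median of 22.5, and replicate 2 has 30000 with a median of 21.2. A further list of 393 regions that passed the authors' irreproducible discovery rate threshold, called thresholded below, runs from 92.1 to 430.2. The pooled list is labelled as peaks and background, the input to that threshold. A region listed there is therefore not by itself a called binding place. The replicate lists are of the same length, so their regions are read with the same care. A promoter region is one whose summit falls in a window around an annotated 5′ end, reaching 1000 bp upstream of it and 200 bp into the gene. The highest 10% of a list is its 3000 regions of highest signal, which begins at 58.3 in the pooled list, 34.4 in replicate 1 and 32.6 in replicate 2. The number of reads behind a region is unknown. Intervals are exact binomial ones at 95% and cover counting over genes only, and no test was made.

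The windows below hold promoter summits of high signal, with 50 bp to each side of the summit in the pooled list. They come from the RefSeq genome of the same build, 5′ to 3′ on the strand of the gene. Windows of nhr-85 (pooled signal 59.8) and nhr-217 (59.7) are not printed, although both signals exceed those of nhr-239 (59.1) and nhr-42 (58.5). The window of nhr-47 is 51 bp and ends 26 bp before its summit, because the summit lies in an untranslated exon, and that of nhr-25 is 77 bp and begins at the start codon. They are in order of pooled signal, with nhr-27 added last as the tagged gene. Capitals mark GAGAGA on either strand, read as TCTCTC where it is on the other strand, and CGCG.
nhr-47: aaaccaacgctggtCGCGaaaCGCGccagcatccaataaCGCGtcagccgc
nhr-41: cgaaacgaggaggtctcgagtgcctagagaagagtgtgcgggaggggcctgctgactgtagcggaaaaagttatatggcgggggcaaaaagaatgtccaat
nhr-88: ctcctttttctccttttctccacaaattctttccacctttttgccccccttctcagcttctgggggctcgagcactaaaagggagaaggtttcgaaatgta
nhr-25: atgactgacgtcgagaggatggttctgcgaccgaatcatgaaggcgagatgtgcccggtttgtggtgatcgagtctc
nhr-48: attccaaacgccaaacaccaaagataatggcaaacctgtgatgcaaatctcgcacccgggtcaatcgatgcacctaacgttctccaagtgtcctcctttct
nhr-255: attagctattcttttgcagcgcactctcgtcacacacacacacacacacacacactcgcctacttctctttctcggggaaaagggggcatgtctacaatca
nhr-1: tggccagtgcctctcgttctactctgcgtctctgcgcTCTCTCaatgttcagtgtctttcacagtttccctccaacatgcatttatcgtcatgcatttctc
nhr-137: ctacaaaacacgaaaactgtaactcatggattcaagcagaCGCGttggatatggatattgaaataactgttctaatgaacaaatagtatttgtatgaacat
nhr-239: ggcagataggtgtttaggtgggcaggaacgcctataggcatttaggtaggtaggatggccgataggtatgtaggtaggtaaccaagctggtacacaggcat
nhr-42: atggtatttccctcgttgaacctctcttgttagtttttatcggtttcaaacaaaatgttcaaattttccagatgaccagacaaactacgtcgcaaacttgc
nhr-27: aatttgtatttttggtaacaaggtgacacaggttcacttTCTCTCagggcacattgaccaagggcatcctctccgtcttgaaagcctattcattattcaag
In these 11 windows the words AGGTCA and AGTTCA and also AGTGCA, 6-base forms of nuclear receptor sites, were found on neither strand. The windows are at V:5505202-5505252 (nhr-47), IV:1388291-1388391 (nhr-41), II:2976771-2976871 (nhr-88), X:13008892-13008968 (nhr-25), X:15707394-15707494 (nhr-48), X:15741929-15742029 (nhr-255), X:17513682-17513782 (nhr-1), X:6669395-6669495 (nhr-137), III:2560996-2561096 (nhr-239), V:6998748-6998848 (nhr-42) and X:12708095-12708195 (nhr-27), of which nhr-137 and nhr-27 are on the minus strand. The nhr-47 window was the richest in G and C of the 11, at 60.8%, and held CGCG 3 times, while the nhr-137 window had the least, at 32.7%, and held it once.

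Receptor genes had listed promoter regions about as often as protein-coding genes at large, and the regions they had were of ordinary signal. In the pooled list 99 of 274 had one (36.1%), beside 36.5% of all protein-coding genes. In replicate 1 there were 85 (31%), beside 35.8%, and in replicate 2 there were 86 (31.4%), beside 37%. The median signal of the strongest promoter region was 37.6 over the 99 receptor genes and 40.2 over the 7284 protein-coding genes with one. The replicates' own lists gave 22.9 beside 23.7 and 21.5 beside 22.4. In the pooled list and in both replicates 42 receptor genes had a promoter region, which is 15.3% of them beside 19.8% of all protein-coding genes, and 141 had none in any of these 3 lists, or 51.5% beside 46.8%. A further 53 had one in 2 of the lists and 38 in 1.

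The share of receptor genes in the highest 10% was a little below that of all protein-coding genes in each list. In the pooled list 12 had a promoter region in the highest 10% (4.38%, interval 2.28% to 7.53%), beside 5.56% of all protein-coding genes, a share inside that interval. The counts were 11 in replicate 1 (4.01%, beside 5.1%) and 10 in replicate 2 (3.65%, beside 5.7%). Each pooled summit was also given only to the gene with the nearest 5′ end. Then 12 receptor genes were in the highest 10%, beside 4.68% of all protein-coding genes, and 97 of 274 had any promoter region, beside 31%. In the thresholded list there was 1, nhr-47, beside 1.01% of all protein-coding genes. Over the 3 longer lists 18 receptor genes were in the highest 10% of at least 1, and nhr-47, nhr-41, nhr-88 and nhr-48 were in that of all 3. Another 7 were in the highest 10% of 2 lists (nhr-217, nhr-85, nhr-239, nhr-42, nhr-137, nhr-25 and nhr-1) and 7 in that of 1 (nhr-49, nhr-119, nhr-121, nhr-34, nhr-35, nhr-71 and nhr-255). The counts over several lists have no matching share of all protein-coding genes here, so they only name the genes.

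**Figure D1:**
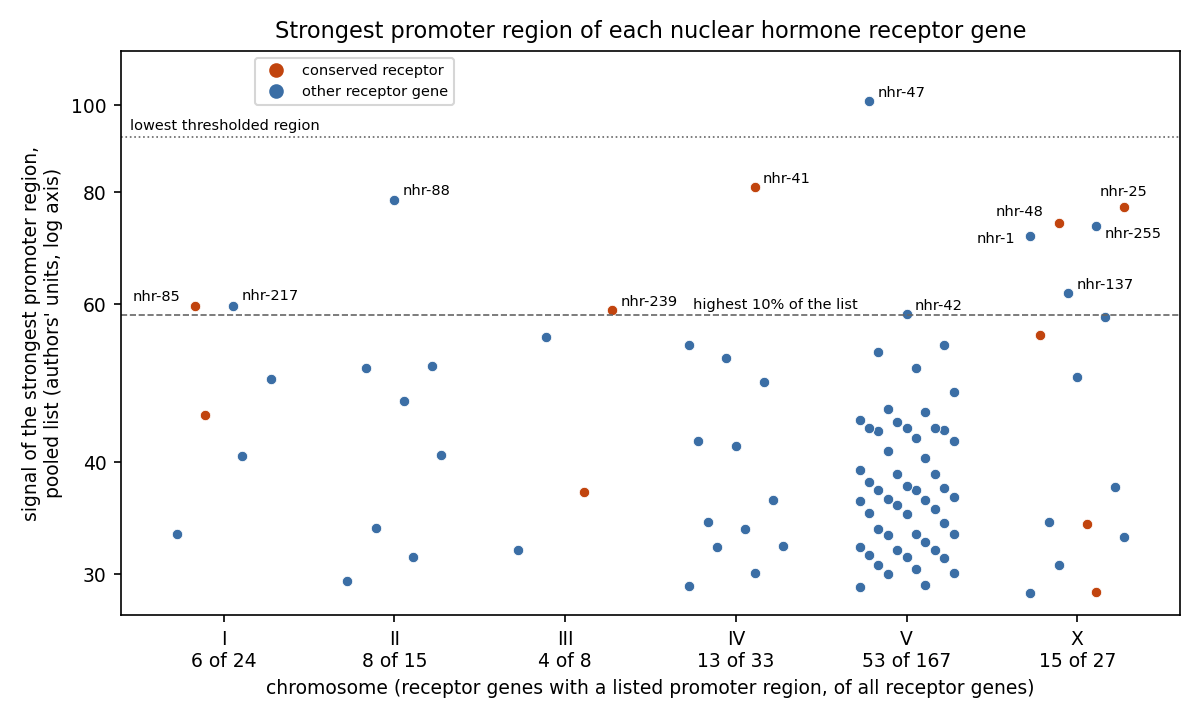
Signal of the strongest promoter region of each of the 99 receptor genes with one in the pooled list (log axis, authors' units), by chromosome, with genes of the conserved list in orange. The 12 named genes lie above the dashed line, where the highest 10% of the list begins, and nhr-47 alone lies above the dotted line, the lowest thresholded region.

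The gene with the highest promoter signal was nhr-47, a receptor on V with 1 annotated 5′ end. Its region, at V from 5505083 to 5505472, had a pooled signal of 101 and rank 277, with 45.2 in replicate 1 and 47 in replicate 2. The replicates' ranks were 754 and 547. The summit was 25 bp downstream of the 5′ end, in an untranslated exon, and it also lay in the promoter window of dnj-19, a gene for a DnaJ-type chaperone that is transcribed from the other side, so the region cannot be assigned to either gene alone. Its printed window, just upstream of the 5′ end, is the one with 3 CGCG words.

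The next were nhr-41, nhr-88, nhr-25 and nhr-48. The region of nhr-41, the counterpart of DHR78 of Drosophila, lay in an intron 244 bp downstream of a 5′ end at IV from 1388146 to 1388535, with a pooled signal of 81, 39.7 in replicate 1 and 35.7 in replicate 2. A transfer RNA (tRNA) gene is within 200 bp of its summit. The region of nhr-88 was also in an intron, at II from 2976626 to 2977015, with 78.5 in the pooled list, 36.7 in replicate 1 and 40.5 in replicate 2. Both genes ranked within the highest 10% of both replicates, so their place did not rest on 1 library.

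For nhr-25, the counterpart of Drosophila Ftz-F1 with known roles in moulting and in the epidermis, the summit fell in the first coding exon at X from 13008723 to 13009112. Its pooled signal was 77.1, with 44.6 in replicate 1 and 32.3 in replicate 2, the latter at rank 3111 and so just outside the highest 10%. The summit of nhr-48, a relative of daf-12 and of the vertebrate vitamin D receptor, was 769 bp upstream of a 5′ end at X from 15707249 to 15707638. Its pooled signal was 74, with 36.4 in replicate 1 and 38.7 in replicate 2, at ranks 2301 and 1371. The ranks of nhr-25 were 804 and 3111.

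The other 7 genes in the highest 10% of the pooled list had signals from 58.5 to 73.4. For nhr-255 the signal was 73.4 (33.8 in replicate 1, 30.8 in replicate 2), with the summit 631 bp upstream and a tRNA gene within 200 bp. For nhr-1 it was 71.4, and the overlapping region in replicate 2 had 54.3 at rank 288, the only promoter region of a receptor gene among the 393 highest of a single replicate. No region of replicate 1 overlapped it, although that list has another, of 25.4, in the windows of nhr-1. The order is therefore not one that both replicates give.

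The same held for several genes further down. The region of nhr-137 had 61.8 in the pooled list, 24.4 in replicate 1 and 39.3 in replicate 2. That of nhr-85, the counterpart of Drosophila E75 and vertebrate Rev-erb and known for timing of larval development, had 59.8, 35.6 and 28.5. That of nhr-217 had 59.7, 26.9 and 36.3. By rank nhr-85 stood higher in replicate 1 (2545 and 5313), and nhr-137 (11824 and 1273) and nhr-217 (8468 and 1862) stood higher in replicate 2.

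The region of nhr-239 had 59.1 in the pooled list and 45.2 in replicate 1, at rank 756, and no counterpart in replicate 2. Its window above consists largely of repeats of TAGG and similar words. The region of nhr-42, the last inside the highest 10% at rank 2941, had 58.5, with 24.9 and 38.4 in replicates 1 and 2. Just outside, at rank 3052, was nhr-71 with 58.1 (35.3 in replicate 1, 18.3 in replicate 2). The cut between them has no meaning beyond its rank. Below it came daf-12, the receptor for the bile acid-like dafachronic acids, with 55.4 (26.4 and 28), and nhr-121 with 55.2 (absent from replicate 1, 36.5 in replicate 2).

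Receptor genes on X were more often in the highest 10% than other genes there, and those on V less often, though the numbers are small. On X 5 of 27 were in the highest 10% of the pooled list (18.5%, interval 6.3% to 38.1%), beside 5.58% of the other protein-coding genes on X. They were nhr-25, nhr-48, nhr-255, nhr-1 and nhr-137. Replicate 1 had 4 of 27 there (14.8%, interval 4.19% to 33.7%, beside 5.18%). Replicate 2 had 3 (11.1%, interval 2.35% to 29.2%, beside 5.36%). In both replicates the interval held the share of other genes on X. With a narrower window of 500 bp upstream to 100 bp downstream the count on X was 3, where the share of all protein-coding genes was 3.51%. Leaving out regions near small RNA genes gave 4, where that share was 5.12%. Receptor genes on X had a median of 2 annotated 5′ ends, beside 1 for other genes there. Their windows summed to 50.2 kb over 27 genes, beside 3998 kb over 2704 other genes, and the part this plays was not tested. Any promoter region was listed for 15 of the 27 in the pooled list (55.6%, beside 38.5% of other genes on X), for 16 in replicate 1 (59.3%, beside 37.5%) and for 11 in replicate 2 (40.7%, beside 38%).

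On V 2 of 167 were in the highest 10% of the pooled list (1.2%, interval 0.145% to 4.26%), beside 4.14% of other genes on V, a share just inside that interval. These were nhr-47 and nhr-42. Replicate 1 had 1 (0.599%, beside 4.04%) and replicate 2 had 2 (1.2%, beside 4.23%). With a window reaching 2000 bp upstream the count was 6. The share of all protein-coding genes in the highest 10% was then 8.41%, against 5.56% with the window used here. Any promoter region was listed for 53 of the 167 (31.7%, beside 31.6% of other genes on V) in the pooled list, for 42 in replicate 1 (25.1%, beside 33.2%) and for 51 in replicate 2 (30.5%, beside 31.7%). Away from V, 10 of 107 receptor genes (9.35%, interval 4.57% to 16.5%) were in the highest 10%, beside 6.04% of other genes. On I the count was 2 of 24 (beside 6.94% of other genes there) and on II 1 of 15 (beside 5.1%). On III it was 1 of 8 (beside 7.1%) and on IV 1 of 33 (beside 5.76%).

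**Figure D2:**
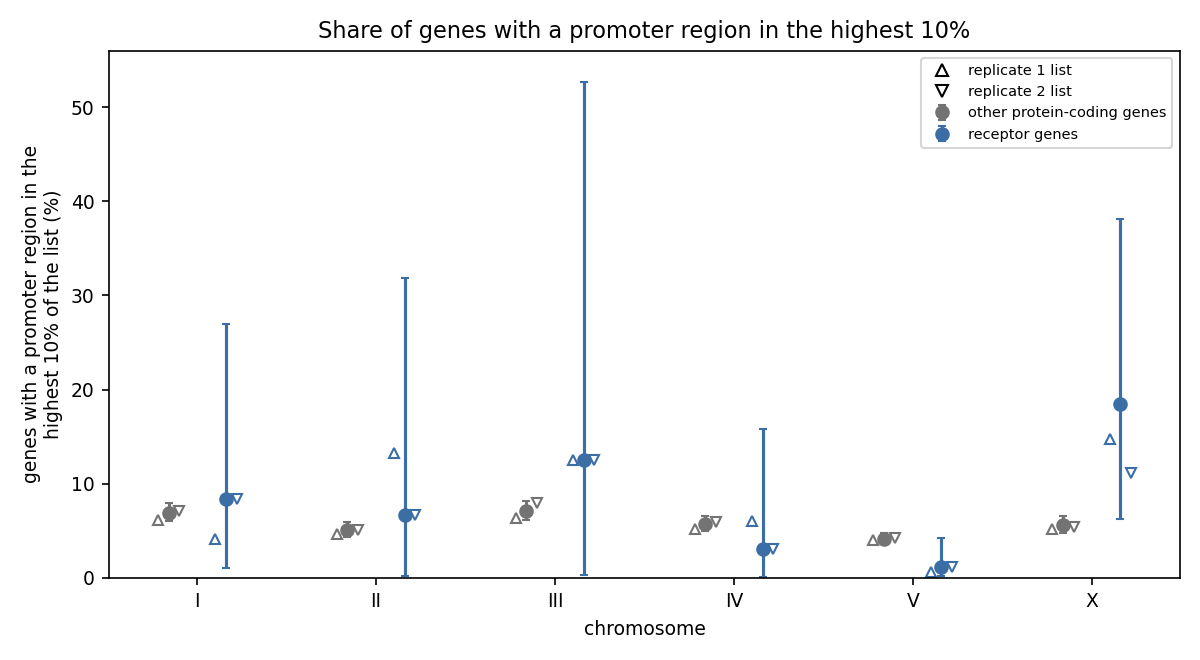
Share of genes with a promoter region in the highest 10% (percent), by chromosome, for receptor genes (blue) and other protein-coding genes (grey). Filled points are the pooled list with exact 95% binomial intervals over genes, and open triangles are each replicate's own list. On X the receptor genes had 18.5% beside 5.58% and on V 1.2% beside 4.14%, and the intervals for the other chromosomes are wide.

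Receptors with counterparts in other animals were in the highest 10% more often than the rest of the family, on counts of 2 to 5 genes. This list of 16 comprises daf-12, fax-1, nhr-6, nhr-8, nhr-23, nhr-25, nhr-41, nhr-48, nhr-67, nhr-85, nhr-91, nhr-111, nhr-236, nhr-239, sex-1 and unc-55. It was chosen with earlier results of these data known, which the intervals do not cover. In the pooled list 5 of them (31.2%, interval 11% to 58.7%) were in the highest 10%, nhr-25, nhr-41, nhr-48, nhr-85 and nhr-239, beside 7 of the 258 other receptor genes (2.71%, interval 1.1% to 5.51%). Replicate 1 gave 5 of 16 beside 6 of 258. Replicate 2 gave 2 of 16 beside 8 of 258. The window of 500 bp upstream to 100 bp downstream gave 2 of 16, where the share of all protein-coding genes was 3.51%. Leaving out regions near small RNA genes gave 4 of 16, where that share was 5.12%. The only member on V is nhr-111, so the list also differs from the rest by chromosome. Away from V the counts were 5 of 15 (33.3%) beside 5 of 92 (5.43%) in the pooled list and in replicate 1, and 2 of 15 (13.3%) beside 6 of 92 (6.52%) in replicate 2.

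These conserved receptors also offer more sequence in which a summit can fall. They had a median of 2 annotated 5′ ends and 1282 bp of joined promoter window, while all protein-coding genes had 1 and 1201 bp. The medians understate the difference, since the windows summed to 37.7 kb over 16 conserved receptors and 29148 kb over 19973 protein-coding genes. Per kilobase of window there were 0.531 pooled regions for the conserved receptors, 0.294 for other receptor genes and 0.328 for all protein-coding genes. Of the regions found, 6 of 20 (30%) in windows of conserved receptors were in the highest 10%, beside 7.14% for other receptors and 12.6% for all protein-coding genes. In replicate 1 the shares were 29.4%, beside 6.19% and 11.8%, and in replicate 2 they were 12.5%, beside 8.91% and 12.4%, so the conserved receptors did not stand above all protein-coding genes by this measure in replicate 2. The part that annotation plays in the count was not tested further.

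Most receptors of development and moulting had a promoter region, 9 of 11 in the pooled list and 8 in each replicate, beside 36.5%, 35.8% and 37% of all protein-coding genes. In the pooled list and in replicate 1, 3 were in the highest 10% (nhr-41, nhr-25 and nhr-85, described above), beside 5.56% and 5.1%, and in replicate 2 there was 1, beside 5.7%. These genes had a median of 3 annotated 5′ ends and 2402 bp of joined window, against 1 and 1201 bp for all protein-coding genes. After daf-12, nhr-23, the counterpart of Drosophila DHR3 and vertebrate ROR and a regulator of moulting, had a signal of 45.2 in the pooled list, with 22.4 in replicate 1 and 26.4 in replicate 2, its summit 74 bp downstream of a 5′ end. For nhr-2, which acts in the embryo, the signal was 40.6 with a region in replicate 2 alone (21.6). For nhr-40, known for embryonic and muscle development, it was 37.5 with a region in replicate 1 alone (29.5). The pooled ranks of these 3 were 8507, 12319 and 15778 of 30000.

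The region of nhr-6, the counterpart of the NR4A receptors and needed for the spermatheca, had 37.1 in the pooled list and differed in rank between replicates more than any other receptor promoter, at 28436 in replicate 1 and 3645 in replicate 2. For sex-1, which measures the number of X chromosomes in sex determination, the pooled signal was 28.7, near the list's end, with 19.3 in replicate 2. No region of replicate 1 overlapped it, although that list has another, of 33.2, in the window of sex-1. The last of the list, nhr-67, the counterpart of tailless, and nhr-91, a relative of the germ cell nuclear factor, had no promoter region in any list. In nhr-67 no gene body region was listed either.

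Among the receptors of neuron identity only fax-1, which acts in interneurons, had a promoter region, with 34.1 in the pooled list, 25.7 in replicate 1 and none in replicate 2. Neither unc-55, the COUP-TF counterpart of motor neurons, nor odr-7, specific to an olfactory neuron pair, had one in any list. Each of these 3 genes had 1 pooled region in its body, with 48.6 for unc-55, 35.7 for fax-1 and 31.3 for odr-7. All 3 overlapped a region in replicate 1 (33.8, 21.8 and 34) and none in replicate 2, where only unc-55 had another body region.

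For receptors of fat and energy metabolism 6 of 11 had a promoter region in the pooled list (54.5%, beside 36.5%), 5 in replicate 1 (45.5%, beside 35.8%) and 6 in replicate 2 (54.5%, beside 37%). Their median joined window was also 2402 bp, and 0 were in the highest 10% of the pooled list. The highest was nhr-66, a partner of nhr-49, with 52.2 (33.3 and 22.2 in the overlapping regions of replicates 1 and 2). For nhr-49 itself, a central activator of fatty acid oxidation and desaturation, the pooled signal was 49.5, with 26.1 and 21.3, and another region in its windows reached 33.3 in replicate 2, at rank 2685 and so in the highest 10% there. For nhr-68, a regulator of propionate breakdown, it was 45.5 with 18.5 and 31.9, at ranks 24765 and 3287. The values were 43.7 for nhr-114, 33.3 for nhr-62 and 32.3 for nhr-76. The pooled list had no promoter region for nhr-10, nhr-13, nhr-64, nhr-69 and nhr-80, of which nhr-80, another activator of desaturases, had one of 21.4 in replicate 2.

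For receptors of xenobiotic, hypoxia and pathogen response the counts were 3 of 6 in the pooled list, 2 in replicate 1 and 3 in replicate 2, beside the same shares of all protein-coding genes, with 0 in the highest 10% of any of these lists. They were nhr-14 with 49.8 (19.2 and 26.7), nhr-176, which acts in the breakdown of the anthelmintic thiabendazole, with 43.7 (replicate 2 alone, 20.1), and nhr-45 with 30.7 (replicate 1 alone, 21.6). The toxin response receptor nhr-8 and the hypoxia-induced gene nhr-57 had no promoter region in any list, and nhr-86, a receptor in pathogen defence, had one of 18 in replicate 2 only.

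Replicates shared fewer of the receptor promoter regions than of all promoter regions. Of the 99 strongest pooled regions 41 overlapped a region in both replicates (41.4%, beside 50.2% for all protein-coding genes), 28 in replicate 1 only, 26 in replicate 2 only and 4 in neither. Over the 41 genes the signals of the replicates had a Spearman's rho of 0.326, beside 0.318 over 3657 protein-coding genes. These points share their libraries, and the pooled signal that chose the regions includes both replicates. After nhr-6 and nhr-68 the ranks differed most for nhr-71 (2657 and 21995), nhr-129 (21929 and 4215) and nhr-207 (9985 and 26283).

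**Figure D3:**
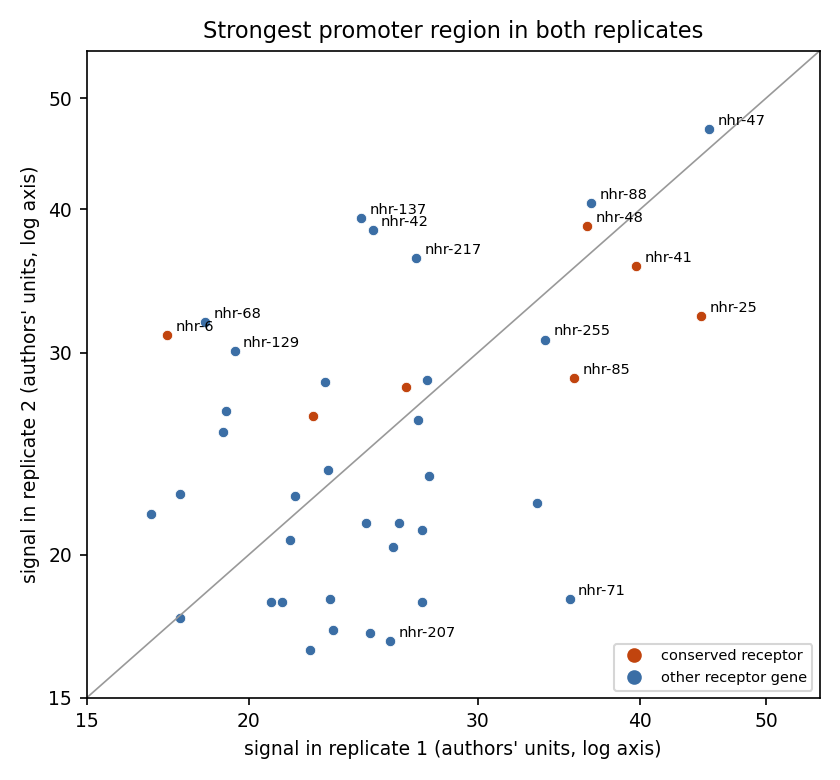
Signal in replicate 1 against replicate 2 (log axes, authors' units) for the 41 receptor genes whose strongest pooled promoter region overlapped a region in both, with conserved receptors in orange and equal numbers joined by the grey line, although the lists may differ in scale. Only nhr-47, nhr-88, nhr-48 and nhr-41 are in the highest 10% of both lists, and nhr-6, nhr-68 and nhr-71 are the genes whose ranks differ most.

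Receptor promoter summits lay somewhat closer to the 5′ end and were rarely shared with a neighbour. Of the 99, 67 were upstream (67.7%, beside 76.4%), and the median distance from the 5′ end, in either direction, was 247 bp, beside 289 bp. Only 4 fell in a second protein-coding gene's window as well (4.04%, beside 21.3%): nhr-47 with dnj-19, nhr-201 with nhr-202, nhr-252 with the chemoreceptor gene srh-62 and nhr-68 with H12C20.7. Coding exons held 22 of the 99 (22.2%, beside 16.4%), introns 17 (17.2%, beside 11.6%) and untranslated exons 7, and 53 were outside the gene (53.5%, beside 67.3%). Near a gene for a tRNA or for a nuclear or nucleolar small RNA were 3, at nhr-41, nhr-255 and nhr-193 (3.03%, beside 2.27%), all of them tRNA genes.

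Within 100 bp of the summit receptor words were about as frequent at receptor genes as at promoters in general. At that distance from the strongest summit AGGTCA, on either strand, was in 5.05% of 99 windows, beside 5.86% of 7284, AGTTCA in 13.1%, beside 11.8%, and AGTGCA in 8.08%, beside 8.1%. At least 1 of the 3 was in 24.2% (interval 16.2% to 33.9%), beside 23.6%. Within 200 bp the share was 52.5%, beside 40.8%, and within 50 bp it was 11.1%, beside 13.6%. Of words added after the values were seen, GAGAGA was in 27.3% (interval 18.8% to 37.1%), beside 17.6%, and CGCG, which is its own reverse complement, in 20.2% (interval 12.8% to 29.5%), beside 28.9%. The median GC content was 40.3% in both sets. These are counts of letters and do not show which protein was bound.

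Within gene bodies, meaning the gene span outside its own promoter windows, regions were about as dense in receptor genes as elsewhere. The pooled list had one in 144 of 274 (52.6%), beside 47.4% of all protein-coding genes, replicate 1 in 125 (45.6%, beside 47.7%) and replicate 2 in 136 (49.6%, beside 46.8%). Per kilobase there were 0.291 in receptor genes and 0.282 in all protein-coding genes, and 0.29 without nhr-27, which is by far the longest here. Introns held 48% of these summits without nhr-27, beside 40.9%, and coding exons 44.4%, beside 52%. The thresholded list had 1, in nhr-17, beside 0.651% of all protein-coding genes.

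The region in nhr-17 had the highest signal at any receptor gene, 124 in the pooled list at rank 113, with 59.2 in replicate 1 and 63.9 in replicate 2. It lies in an intron at X from 12665045 to 12665434, and a tRNA gene is within 200 bp of its summit. Among body regions the next was in an intron of nhr-46 with 82, where the replicates gave 50.7 and 29.7. In daf-12 the highest of 9 body regions had 71.5 (28.4 and 44.5), also intronic. That gene has 9 annotated 5′ ends over 30968 bp.

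In nhr-114, which protects the germline when vitamin B12 is low, a coding exon region had 69.2 (37.5 and 30.5), above its promoter region. The other high values were 69 in nhr-65 (25.1 and 42.6), 68.7 in nhr-3 (55.8 and 21.5), 68.5 in nhr-61 (56.6 and 16.5) and 66.8 in nhr-212 (43.6 and 20.6). The regions of nhr-3 and nhr-61 ranked 270 and 252 in replicate 1 and 14334 and 27516 in replicate 2. By role list, 10 of 11 development genes, 3 of 3 neuron genes, 8 of 11 fat metabolism genes and 4 of 6 xenobiotic response genes had a body region in the pooled list, beside 47.4% of all protein-coding genes. All genes of these lists except nhr-176 (1414 bp) are longer than 2.03 kb, the median of all protein-coding genes. These counts do not take length into account, and its part in them was not tested.

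The tagged gene's own promoters had little signal. nhr-27 is on the minus strand of X from 12705563 to 12808318 and has 3 annotated 5′ ends. The short isoform F16H9.2a.2 begins at 12707414 and spans 1.85 kb. Its window held 1 pooled summit, 731 bp upstream, with a signal of 28.6 at rank 29899 of 30000, near the end of the list. Replicate 1 had a region there too, 725 bp upstream, with 24 at rank 12558, and replicate 2 had none. The distal isoforms F16H9.2b.1 and F16H9.2a.1 begin at 12808249 and 12808318, and their windows held no summit in any list. The nearest pooled summits were 3339 and 3270 bp upstream of them, a region of 35.5 at rank 18286.

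Between the short isoform and the distal first exons lies an intron of 101 kb that contains 11 whole protein-coding genes and part of a twelfth. They are rgs-2, pgp-12, pgp-13, pgp-14, cept-1, ilc-17.1, alh-13, str-124, str-123, abf-5 and abf-6, with gei-3 overlapping the far end. The pooled list had 32 summits there, the one in the short isoform's window included, replicate 1 had 39 and replicate 2 had 27. Of the 32, 20 lay in the spans of these genes and 24 in their spans or promoter windows, which leaves 8 that lie in neither. The density was 0.317 per kb, beside 0.309 over all of X. In replicate 1 it was 0.387, beside 0.312, and in replicate 2 it was 0.268, beside 0.304.

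The highest signals in that intron, 66.2 at rank 1661 and 65 at rank 1813, were both inside gei-3 and in promoter windows of that gene. The third, of 60.1, was inside pgp-14, one of the P-glycoprotein transporter genes. The thresholded list had none. Within the 1.85 kb of the short isoform the pooled list and replicate 2 had 0 summits and replicate 1 had 2, of 23.1 and 19.1. A signal listed inside nhr-27 can therefore lie in another gene, and the count of 32 is not a count for nhr-27 alone.

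**Figure D4:**
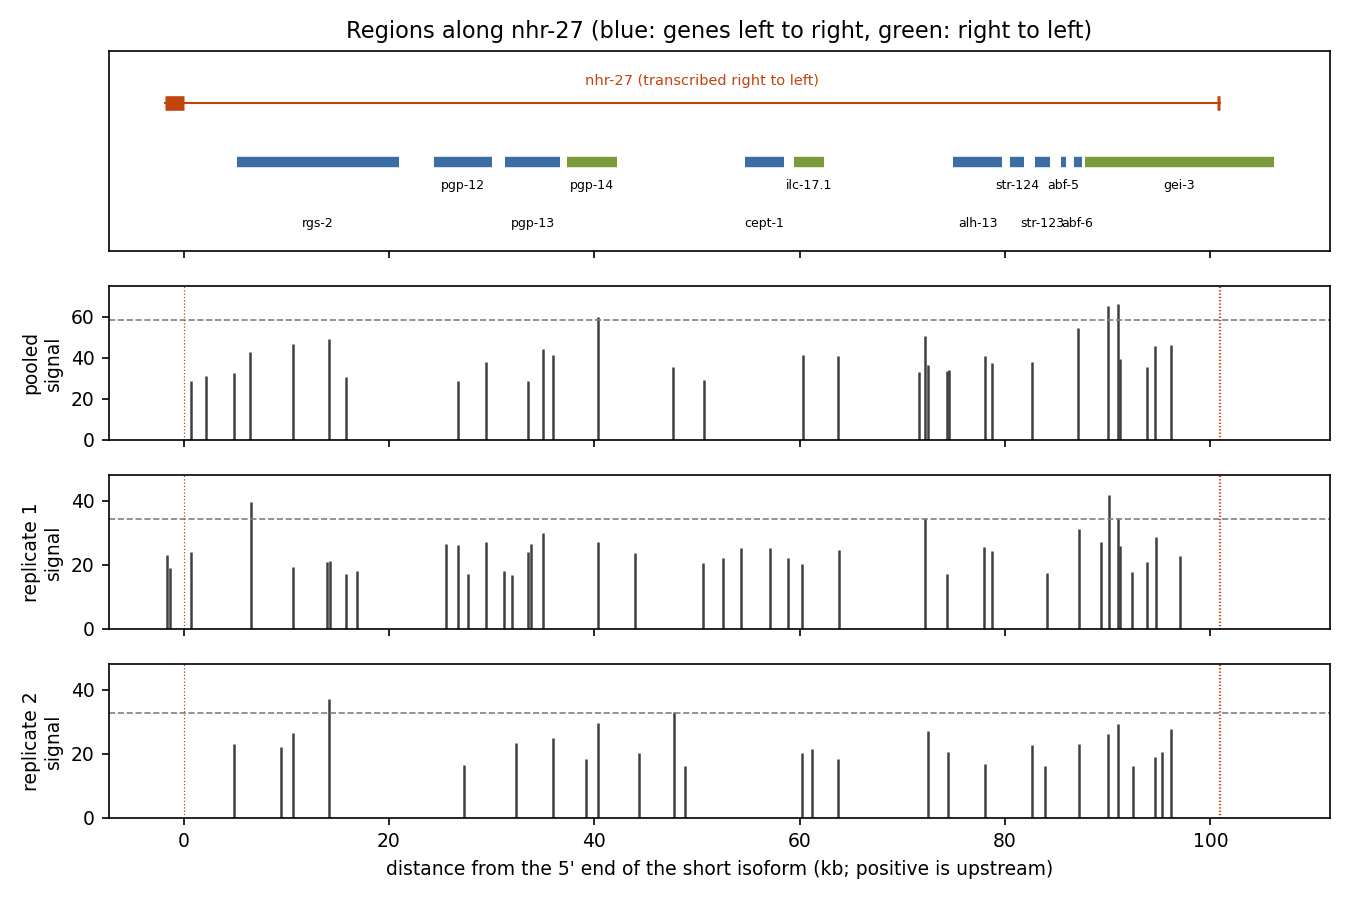
Summits along nhr-27 in the pooled list and in each replicate, as vertical lines whose height is the signal (authors' units, each list on its own scale), against distance from the 5′ end of the short isoform in kilobases. Dotted red lines mark the annotated 5′ ends, dashed lines where the highest 10% of each list begins, and bars at the top other protein-coding genes; the highest pooled lines, of 66.2 and 65, are inside gei-3.

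The receptor genes next to nhr-27 on X, nhr-272, nhr-214 and nhr-26, had no promoter or body region in the pooled list, and nhr-17, 39560 bp from the short isoform's 5′ end, had the tRNA-associated region above. nhr-270, the gene named in the strain note, had no promoter or body region in the pooled list or in either replicate. Neither candidate for the tagged gene thus had a strong region at a promoter.

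Most receptor genes on V lie in clusters, taken here as 3 or more with gaps of at most 50 kb between neighbours. There were 16 clusters with 113 genes over 779 kb, and 54 genes outside them. In the clusters 35 genes (31%) had a pooled promoter region, 29 in replicate 1 and 33 in replicate 2, and outside them 18 of 54 (33.3%). Only nhr-42 was in the highest 10% within the clusters, and only nhr-47 outside. Summits were as dense in the clusters, 27.7 per 100 kb, as on V as a whole, 28.5, with 26.6 beside 29.3 in replicate 1 and 26.6 beside 28 in replicate 2. Thresholded summits were sparse on V, 56 in all or 0.268 per 100 kb. The 779 kb of the clusters held 0 of them, and few would fall there at that density.

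The clusters differed in how many of their genes were listed. The largest, each of 19 genes, were nhr-254 to nhr-155, over 149 kb near the left end of V, and nhr-13 to nhr-226, over 104 kb. The first had 9 genes with a pooled promoter region, 6 in replicate 1 and 5 in replicate 2, the highest nhr-212 with 50.9. The second had 5, 3 in replicate 1 and 8 in replicate 2, the highest nhr-126 with 43.3 (replicate 2 alone, 27.1). The 10 genes from nhr-185 to nhr-156 had 2, the highest nhr-157 with 35.5 (replicate 1 alone, 25.8). The order of the clusters by number listed was thus not the same in both replicates.

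In the other clusters of 4 to 8 genes the highest promoter signals were 58.5 for nhr-42, 47.9 for nhr-178, 44.6 for nhr-207, 43.7 for nhr-44, 42.2 for nhr-102, 41.2 for nhr-251, 39.2 for nhr-269, 37.6 for nhr-231 and 34.2 for nhr-51, and that of nhr-149 was at rank 27158. Only that of nhr-42 reached the highest 10% of the list. The regions of nhr-102, nhr-231, nhr-51 and nhr-149 overlapped a region in replicate 1 only. Those of nhr-44, nhr-251 and nhr-269 overlapped a region in replicate 2 only. No pooled promoter region was listed in the clusters nhr-221 to nhr-222, nhr-192 to nhr-12 and nhr-60 to nhr-282. In these, replicate 1 had 1 such gene in nhr-192 to nhr-12 and replicate 2 had 0.

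**Figure D5:**
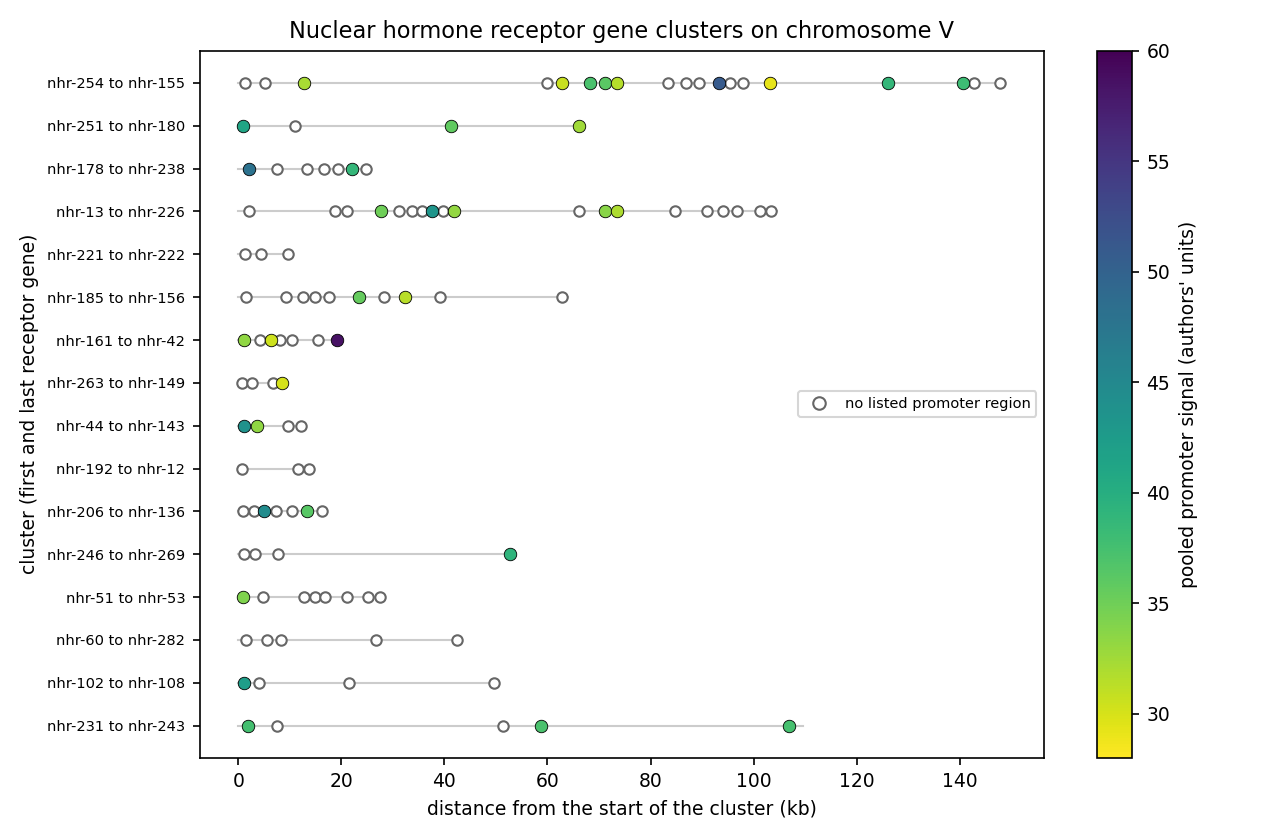
Receptor genes in the 16 clusters on chromosome V, in order along the chromosome from the top, placed by distance from the start of each cluster in kilobases. Filled points have a pooled promoter region and are coloured by its signal (authors' units), and open points have none. Only nhr-42, at 58.5, is among the highest 10% of the list.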

How the data were processed

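Regions were taken from 4 lists that the authors deposited on assembly ce11, which is WBcel235: one for each of 2 biological replicates, one for pooled reads and one past an irreproducible discovery rate threshold. The pooled list is labelled as peaks and background. Per the labels' protocols chromatin was sonicated to 200 to 800 bp. The control alignment was not analysed here, and for the caller, its settings, the threshold and the aligner, details are not given in the sources used here. Deposited signal values have no stated scale, and the deposited −log10 q value, at most 2.59, followed them, so signal served to rank regions, inside 1 list at a time. Both are the authors' values. Read depth is unknown. The labels number the replicates as biological ones, without saying whether they are separate cultures, so their spread may be technical.

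All regions fell inside the reference chromosomes. Genes came from Ensembl release 115, sequence from the RefSeq genome of the same build. A gene took every region with its summit in its window of 1000 bp upstream to 200 bp downstream of a 5′ end, and the strongest was kept. A replicate region matched a pooled one by an overlap of at least 1 bp. With 1 group no comparison between conditions was possible, and shares are given beside those of all protein-coding genes, without a test. The receptor genes, role lists and the conserved list were chosen with earlier results of these data known. Named genes are nhr-27 and nhr-270, those with a thresholded region, the 15 highest promoter and 8 highest body signals, the role lists, the highest of each cluster and the 5 with the largest rank difference. The other genes named are the rest of the highest 10% of any list, neighbours and genes sharing a window, chosen after their values were seen. The assignment of regions to genes was tested on simulated data. Python 3.11.15, SciPy 1.17.1 and Matplotlib 3.10.9 were used. Alternatives changed the window, the overlap rule, the list, regions near small RNA genes, the cluster gap and the word window.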

Additional observations from a re-analysis of the deposited data

How the results depend on the processing

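The 11 results were each recomputed under some of the alternative settings, which gave 60 recomputed values in all. Of these, 46 stayed within the limit set for a change (1.5 times for a count). With a window reaching 2000 bp upstream 19 receptor genes were in the highest 10%, as were 8.41% of all protein-coding genes, and 6 on V. With 500 bp upstream to 100 bp downstream the conserved receptors had 2 and the receptor genes on X had 3, beside 3.51% of all protein-coding genes. Counting any overlap with the window gave 4 on V, with 6.81% of all protein-coding genes in the highest 10%. The count past the threshold was 0 in the upper part of the thresholded list by signal. Leaving out a replicate gave 0 to 1 receptor genes past the threshold, 2 to 5 conserved receptors, 3 to 4 genes on X and 1 to 2 on V in the highest 10%. The median signal of 21.5 to 22.9 then is on the replicate lists' own scale. Receptor words were in 11.1% of windows of 50 bp to each side (all protein-coding genes, 13.6%) and 52.5% of windows of 200 bp (40.8%). The settings for X, V and the conserved list, and the GAGAGA and CGCG words, were added after seeing the data. The cause of these changes was not tested. Counts of 1 to 5 genes limit what can be read from the highest 10%, and unknown read depth leaves the error of a single signal unknown. No paired analysis was possible because there is only 1 group.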
